A study of Mus musculus with 15 samples.

Results

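The genes described here encode 4 TRAF adaptors (Traf1, Traf2, Traf3 and Traf5), the ubiquitin ligase cIAP2 that binds them (Birc3) and the 5 NF-kB subunits (Nfkb1, Nfkb2, Rel, Rela and Relb). They were chosen by name, not by their values, though with earlier results of these data known. All 10 were found in the gene count table, where they are 10 of the 17366 genes with enough counts to be tested. RNA from mouse OT-I CD8+ T cells, whose transgenic receptor sees the ovalbumin peptide SIINFEKL, was sequenced in 15 libraries, 5 in each of 3 groups. All cells came from OT-I mice on the C57BL/6J background, crossed to Rag1-/- or Rag2-/- and carrying CD45.1 or CD45.1/2 by the study's methods, a background on which T cells carry only the transgenic receptor and mice make no B cells of their own, whereas the wild-type recipients have T and B cells of their own. The Ag cells had been transferred into wild-type C57BL/6J recipients given SIINFEKL with control rat IgG, and the Ag+Costim cells into recipients given SIINFEKL with agonist antibodies to CD134 (OX40, Tnfrsf4) and CD137 (4-1BB, Tnfrsf9). Both were sorted as CD8+ CD45.1+ Vα2+ Vβ5+ cells from spleen and lymph nodes, 4 days later by the labels, whereas the Naive cells came straight from OT-I mice with no transfer. Mice of both sexes and of a range of ages were used, and the ages are not given per library. The 3 groups therefore differ in transfer as well as in antigen, and the 5 libraries of a group are labelled as biological replicates.

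OX40 and 4-1BB are TNF receptors with no enzyme activity of their own. When they are ligated, trimers of TRAF proteins bind their tails, and TRAF2 brings in the cIAP ligases. In the classical pathway the ubiquitin chains that follow activate the IKK complex, which marks IkBα for destruction and frees dimers of RelA or c-Rel with p50, the product of Nfkb1. In the alternative pathway TRAF3 normally holds the kinase NIK (Map3k14) at a low level through TRAF2 and the cIAPs, and loss of that hold lets NIK act on p100, the product of Nfkb2, to give p52 that pairs with RelB. Most of this control is on proteins, by ubiquitin, phosphate and the move into the nucleus, none of which RNA counts measure. Several of the genes are also targets of NF-kB, and TRAF1 is made at a high level in activated lymphocytes.

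In GENCODE M21 on GRCm38 the adaptor genes are Traf1 (ENSMUSG00000026875.14, chr2:34941750-34961772, minus strand), Traf2 (ENSMUSG00000026942.13, chr2:25517982-25546940, minus strand), Traf3 (ENSMUSG00000021277.16, chr12:111166370-111267153, plus strand) and Traf5 (ENSMUSG00000026637.13, chr1:191997205-192092559, minus strand). Birc3 (ENSMUSG00000032000.17, chr9:7848699-7873186, minus strand) lies beside Birc2 on its chromosome. The subunit genes are Nfkb1 (ENSMUSG00000028163.17, chr3:135584655-135691547, minus strand), Nfkb2 (ENSMUSG00000025225.15, chr19:46304320-46312385, plus strand), Rel (ENSMUSG00000020275.9, chr11:23736847-23770970, minus strand), Rela (ENSMUSG00000024927.8, chr19:5637483-5648130, plus strand) and Relb (ENSMUSG00000002983.17, chr7:19606217-19629438, minus strand).

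The windows upstream of the transcription start are shown for the genes whose promoters hold the kappaB consensus, the decamer that NF-kB dimers bind, and for Traf1 and Traf5, whose RNA varied together across the libraries. RefSeq promoter entries (build GRCm38.p6) matched 8 of the 10 genes, in 10 windows of 300 bases. Each line gives the 250 bases before the start, 5′ to 3′ on the gene's own strand, with matches to the consensus on either strand in capitals. They lie at chr12:111166120-111166369 on the plus strand (Traf3), chr19:46304487-46304736 on the plus strand (Nfkb2, the first of 3 starts), chr11:23770970-23771219 on the minus strand (Rel), chr2:34961773-34962022 on the minus strand (Traf1) and chr1:192092600-192092849 on the minus strand (Traf5).

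Traf3: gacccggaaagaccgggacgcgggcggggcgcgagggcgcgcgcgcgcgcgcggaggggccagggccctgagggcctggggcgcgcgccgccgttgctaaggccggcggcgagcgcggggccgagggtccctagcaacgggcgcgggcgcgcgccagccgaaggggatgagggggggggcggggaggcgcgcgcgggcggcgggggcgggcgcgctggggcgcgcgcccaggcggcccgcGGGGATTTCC
Nfkb2: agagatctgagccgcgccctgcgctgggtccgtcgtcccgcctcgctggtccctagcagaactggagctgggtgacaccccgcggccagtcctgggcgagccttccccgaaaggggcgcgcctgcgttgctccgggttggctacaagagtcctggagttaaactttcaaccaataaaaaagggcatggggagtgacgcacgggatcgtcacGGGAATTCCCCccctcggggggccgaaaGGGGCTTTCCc
Rel: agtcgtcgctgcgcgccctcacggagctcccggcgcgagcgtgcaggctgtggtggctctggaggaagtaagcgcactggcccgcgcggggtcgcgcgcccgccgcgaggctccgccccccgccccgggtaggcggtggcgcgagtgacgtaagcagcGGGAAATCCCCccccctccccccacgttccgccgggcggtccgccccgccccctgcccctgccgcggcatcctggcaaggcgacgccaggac
Traf1: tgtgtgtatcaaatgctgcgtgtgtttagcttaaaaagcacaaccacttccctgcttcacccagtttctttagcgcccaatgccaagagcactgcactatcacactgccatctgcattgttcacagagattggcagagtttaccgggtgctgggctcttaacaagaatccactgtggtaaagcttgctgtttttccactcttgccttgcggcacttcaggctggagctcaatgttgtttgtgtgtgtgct
Traf5: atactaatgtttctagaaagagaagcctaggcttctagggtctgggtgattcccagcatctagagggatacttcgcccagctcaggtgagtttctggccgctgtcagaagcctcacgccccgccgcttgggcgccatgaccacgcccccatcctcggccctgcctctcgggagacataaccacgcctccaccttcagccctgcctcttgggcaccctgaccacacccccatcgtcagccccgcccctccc

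The Traf3 window held 1 match, at position -10 from the start. In the first Nfkb2 window GGGAATTCCC began at -39 and overlapped GGAATTCCCC at -38, and GGGGCTTTCC began at -11. The other starts of Nfkb2 also had matches, among them GGGACTTTCC, which the windows of the second and the third start share. The Rel window held GGGAAATCCC at -92, overlapping GGAAATCCCC at -91. In all, 5 of the 10 windows, of 3 genes, held a match, against 2779 of 32851 windows in the whole table (8.46%). No match was found in the windows of Traf1, Traf2, Traf5, Birc3 or Rela, which says only that these letters are not in these windows, and Nfkb1 and Relb had no entry.

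Total counts ran from 4865952 in Ag 3 to 25280667 in Naive 3. The lowest count of any of the 10 genes was 111 reads (Relb in Ag 3), so none was near the limit of detection. The CD8 T cell markers were present in every library, with all 10 of the list at a mean of 1 CPM or more in each group. By the deposited sequencing table the Ag libraries and Ag+Costim 1 to 3 were run on lane 2 and the Naive libraries on lane 3, with Ag+Costim 4 and 5 on the latter, so that Ag and Naive shared no lane. The library input amount listed there was 1.4 for Ag 2, 1.8 for Ag 5, 7 for Naive 2, 9.4 for Ag 3 and 10 for the others, with no unit given. Ag 3 had 16.9% of its reads counted in genes, where the other Ag libraries had 37.4% to 53.6%. Naive 5 stood apart from the other Naive libraries, with a summed CPM of 2381 for 7 cycling and effector genes where they had 135 to 956. Without Ag 3 and Naive 5 the calls of Traf2, Nfkb1 and Relb described below held, with differences of 0.45, 0.55 and -0.69 between Ag+Costim and Naive and of 0.63 for Nfkb1 between Ag and Naive, whereas that of Traf3 did not. In those fits 58.5% and 22.9% of all genes were called.

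Values below are CPM, read counts relative to the library's total, scaled by TMM, a correction for differences in RNA composition. Tests are edgeR's quasi-likelihood test on the counts of all 15 libraries, with p adjusted over all 17366 genes by Benjamini and Hochberg and called under 0.05. Of the 10 genes, 1 was called between Ag and Naive (Nfkb1, higher), against 6.71% of all genes tested. None was called between Ag+Costim and Ag, where 0.0346% of all genes were called. In that comparison 3 of the 10 had an unadjusted p under 0.05 (26.8% of all genes), DESeq2 called 1 (18.4% of the genes it gave an adjusted p) and limma's voom with sample quality weights called 6 (64.5%). Between Ag+Costim and Naive 4 were called (Traf2 and Nfkb1 higher, Traf3 and Relb lower), against 44.7% of all genes. Further fits of that comparison are given beside the genes: the 2 groups alone, which called 64.8% of the genes tested, the lane 3 libraries alone, which called 34.7%, and all libraries with a lane term, which called 5.43%. Only Ag+Costim was on both lanes, so the difference under the lane term is also that of Ag+Costim 4 and 5 against Naive. It is not a separate estimate from that of lane 3. In the main fits the share of the 10 genes past the threshold was thus close to that of genes at large. The median log2 difference over the 10 genes was -0.01, -0.17 and -0.16 in those 3 comparisons, where over all genes it was 0.08, -0.10 and -0.08. Since RNA was taken from bulk samples, fewer cells of a type and less RNA per cell cannot be told apart in any of these values.

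**Figure D1:**
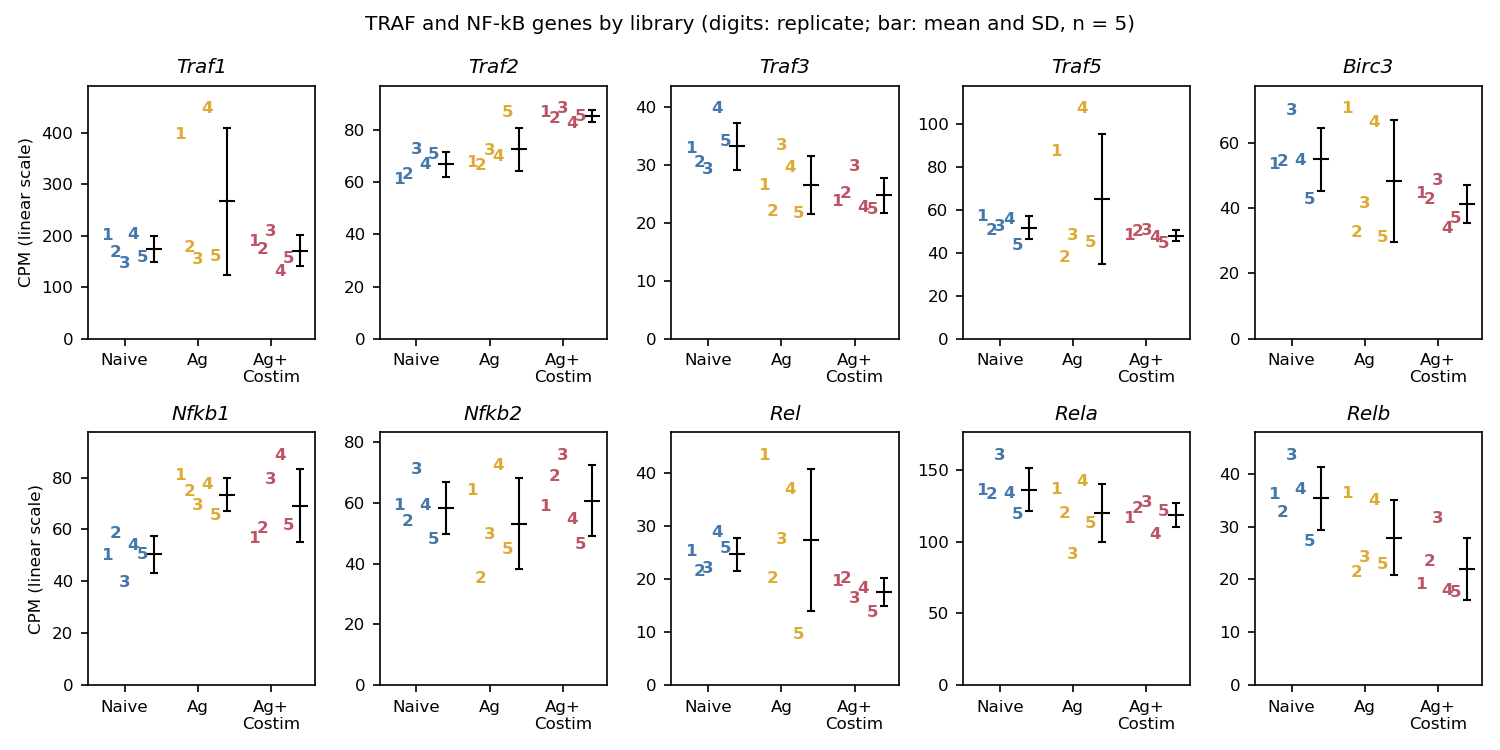
TMM-scaled CPM (vertical axis, from 0) of the 10 genes in each of the 15 libraries, 1 panel a gene, with each library drawn as its replicate number and black bars for the mean ± SD of the 5 libraries of a group. Ag 1 and Ag 4 sit above every other library for Traf1, Traf5 and Rel, and all Ag+Costim points sit above all Naive points for Traf2.

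Among the adaptors, Traf2 rose in Ag+Costim over Naive and Traf3 fell, whereas Traf1 and Traf5 did not pass the test in any comparison. TRAF2 is the adaptor through which OX40 and 4-1BB reach the cIAPs and the IKK complex. Its CPM was 61.3, 63.2, 72.5, 66.8 and 70.9 in Naive libraries 1 to 5. It was 67.5, 66.7, 72.3, 70.2 and 86.8 in Ag libraries 1 to 5, and 87.0, 84.5, 88.3, 82.6 and 85.2 in Ag+Costim libraries 1 to 5. The Ag+Costim libraries lay within a narrow band above all Naive libraries, as 45.0% of genes did not overlap between these groups in either direction, whereas Ag 5 reached into that band. Traf2 rose by 0.35 ± 0.09 (log2, SE) in Ag+Costim over Naive, from 67.0 ± 4.82 to 85.5 ± 2.20 CPM (mean ± SD, n = 5; edgeR adjusted p = 0.0119). The same rise among the lane 3 libraries alone was 0.33, with edgeR adjusted p = 0.0823. With a lane term it was 0.33 (adjusted p = 0.0793) and with no filter on low counts 0.52 (adjusted p = 0.108), so the call was lost in each. Over the alternatives tried adjusted p ran from 5.44e-06 to 0.108. With libraries scaled by their totals alone the difference was 0.20 (adjusted p = 0.0544), and that scaling put the median of all genes at -0.23. Against Ag the difference was 0.23 ± 0.09 (edgeR adjusted p = 0.127), and within lane 2 it was 0.27 (adjusted p = 0.628). Without Ag 5 it was 0.31 with adjusted p = 0.0244, and DESeq2 on all libraries gave 0.25 with adjusted p = 0.0459. These fits called 3573 of 18108 and 5314 of 28824 genes. Ag and Naive differed by 0.12 ± 0.09 (adjusted p = 0.378).

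TRAF3 restrains NIK and so the alternative pathway. Traf3 CPM was 32.9, 30.3, 29.1, 39.6 and 33.9 in Naive libraries 1 to 5 and 26.4, 22.0, 33.3, 29.5 and 21.5 in Ag libraries 1 to 5. In Ag+Costim libraries 1 to 5 it was 23.7, 25.0, 29.7, 22.6 and 22.3. Ag+Costim overlapped Naive in 1 library, Ag+Costim 3, which lay above Naive 3. Traf3 fell by 0.43 ± 0.14 (log2, SE) in Ag+Costim against Naive (edgeR adjusted p = 0.0279), and by 0.56 within lane 3 (adjusted p = 0.0394). With a lane term it was -0.56 and no longer called (adjusted p = 0.0667), nor was it with no filter on low counts (-0.26, adjusted p = 0.386). The call was also lost without any 1 of 6 libraries, namely Naive 1 (-0.42, adjusted p = 0.0598), Naive 4 (-0.35, 0.0830), Ag+Costim 1 (-0.41, 0.0572), Ag+Costim 2 (-0.43, 0.0510), Ag+Costim 4 (-0.30, 0.122) or Ag+Costim 5 (-0.39, 0.0659). The same held without Ag 3 and Naive 5 together (-0.34, adjusted p = 0.0579), so that the call held in 11 of the 20 alternatives tried. Ag against Naive gave -0.32 ± 0.14 (adjusted p = 0.151) and Ag+Costim against Ag -0.10 ± 0.14 (adjusted p = 0.661).

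TRAF1 lacks the RING domain that the other TRAFs of this group have and joins TRAF2 in mixed trimers. Traf1 CPM was 397, 177, 154, 447 and 160 in Ag libraries 1 to 5, so that Ag 1 and Ag 4 stood far above the others of their group. In Naive libraries 1 to 5 it was 201, 167, 146, 203 and 157, and in Ag+Costim libraries 1 to 5 188, 173, 208, 130 and 156. These 2 groups covered nearly the same range. TRAF5, which binds OX40 beside TRAF2, had the same pattern: Traf5 CPM was 87.3, 37.9, 48.1, 107 and 44.9 in Ag libraries 1 to 5. Traf5 ran from 43.3 to 57.1 in Naive, with a median of 52.1, and from 44.2 to 50.2 in Ag+Costim, with a median of 48.0. The log2 difference of Traf1 was 0.61 ± 0.29 in Ag over Naive (edgeR adjusted p = 0.174) and -0.64 ± 0.29 in Ag+Costim against Ag (adjusted p = 0.171). For Traf5 these were 0.33 ± 0.24 (adjusted p = 0.340) and -0.44 ± 0.24 (adjusted p = 0.242). Both genes were called in both comparisons by limma's voom with sample quality weights, which gives each library a weight of its own: Traf1 0.95 (adjusted p = 0.00655) and -1.09 (2.70e-04), Traf5 0.67 (0.00520) and -0.87 (8.65e-05). That test called 23.3% of all genes between Ag and Naive and 64.5% between Ag+Costim and Ag. Between Ag+Costim and Naive, Traf1 differed by -0.03 ± 0.29 (adjusted p = 0.938) and Traf5 by -0.11 ± 0.24 (adjusted p = 0.711).

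Birc3, whose product cIAP2 puts ubiquitin on NIK and on RIPK1, had CPM of 53.5, 54.3, 69.9, 54.7 and 42.7 in Naive libraries 1 to 5. In Ag libraries 1 to 5 it was 70.4, 32.4, 41.4, 66.4 and 31.1, again with Ag 1 and Ag 4 above the other 3. In Ag+Costim it ran from 33.9 to 48.4 with a median of 42.5. Birc3 did not pass the test in any comparison, with log2 differences of -0.19 ± 0.23 in Ag against Naive (edgeR adjusted p = 0.584), -0.23 ± 0.23 in Ag+Costim against Ag (0.522) and -0.42 ± 0.23 in Ag+Costim against Naive (0.135). With the Ag+Costim and Naive libraries fitted alone the last was -0.48 with adjusted p = 0.0134, in the fit that called 64.8% of all genes. Its paralog Birc2, which encodes cIAP1, fell by 0.62 in Ag+Costim against Naive. That call held in 9 of 20 alternatives tried. It was lost, among others, within lane 3, with a lane term and with any single Ag+Costim library left out.

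**Figure D2:**
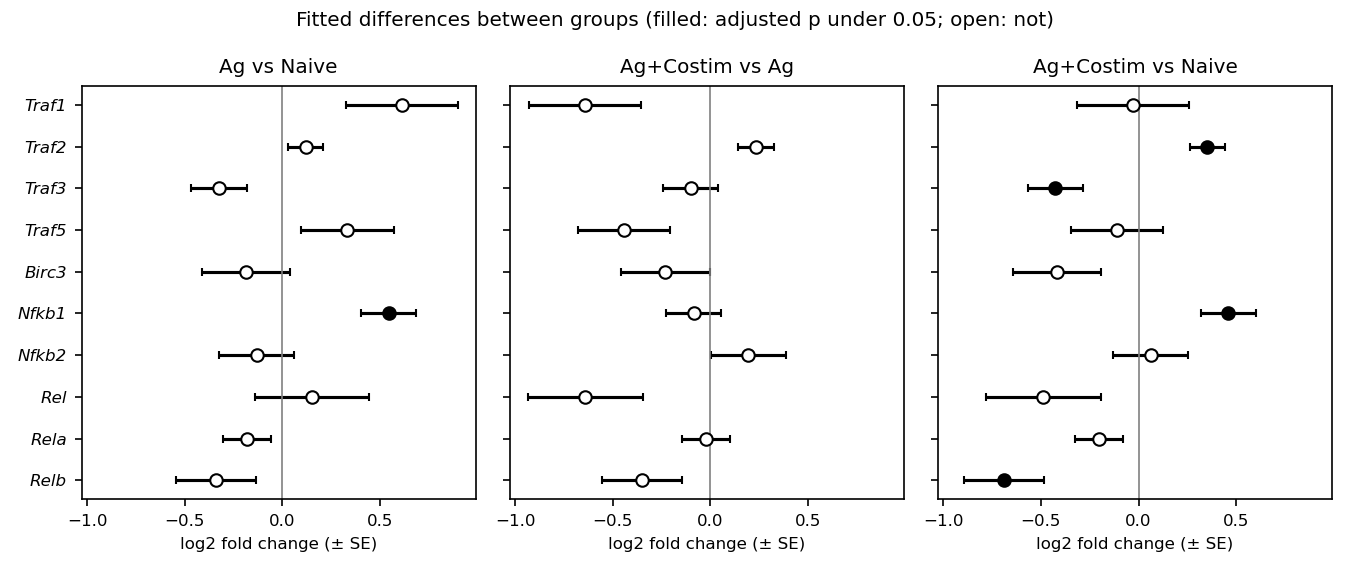
Log2 fold change (horizontal axis) with its SE for each of the 10 genes in the 3 comparisons, with filled points where edgeR's adjusted p was under 0.05. Nfkb1 is filled in Ag against Naive, no gene in Ag+Costim against Ag, and Traf2, Traf3, Nfkb1 and Relb in Ag+Costim against Naive.

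Of the NF-kB subunits, Nfkb1 was higher in both transferred groups than in Naive, and Relb was lower in Ag+Costim than in Naive. Nfkb1 encodes p105, which is cut to p50. Its CPM was 49.8, 58.4, 39.5, 53.8 and 50.2 in Naive libraries 1 to 5 and 80.8, 74.5, 69.0, 77.4 and 65.4 in Ag libraries 1 to 5. In Ag+Costim libraries 1 to 5 it was 56.4, 60.2, 79.3, 88.5 and 61.5. No Ag library overlapped the Naive range, as for 3.85% of all genes, and Nfkb1 had the narrowest spread of the 10 genes in Ag, with an SD of log2 CPM of 0.12 where the median over 9745 genes with a mean of 10 CPM or more was 0.40. In Ag+Costim its SD was 0.28 and the median 0.12. Nfkb1 rose by 0.55 ± 0.14 (log2, SE) in Ag over Naive (edgeR adjusted p = 0.0349), over alternatives with adjusted p from 0.0147 to 0.609 and a difference from 0.47 to 0.74. The call was lost without Ag 2 (0.54, adjusted p = 0.0958), Naive 1 (0.54, 0.0910), Naive 3 (0.47, 0.0936) or Naive 4 (0.57, 0.0784). It was also lost with those groups alone (0.54, adjusted p = 0.148), with library totals alone (0.47, 0.0778), with no filter on low counts (0.47, 0.292) and with a lane term (0.74, 0.609), and held in 11 of 19 alternatives. Ag and Naive shared no lane, so that the lane term was set by the Ag+Costim libraries, and under it no gene was called between Ag and Naive, with 1285 of 17366 at an unadjusted p under 0.05. In Ag+Costim over Naive it rose by 0.46 ± 0.14 (adjusted p = 0.0208) and within lane 3 by 0.58 (adjusted p = 0.0450). With a lane term it was 0.58 and no longer called (adjusted p = 0.0601), nor was it with library totals alone (0.30, 0.116) or no filter on low counts (0.64, 0.0605), and the call held in 17 of 20 alternatives. Ag+Costim and Ag differed by -0.09 ± 0.14 (adjusted p = 0.711).

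RELB is the partner of p52 in the alternative pathway. Relb CPM was 36.1, 32.7, 43.5, 37.0 and 27.3 in Naive libraries 1 to 5, 36.2, 21.4, 24.2, 35.0 and 22.7 in Ag libraries 1 to 5, and 19.1, 23.3, 31.6, 18.0 and 17.6 in Ag+Costim libraries 1 to 5. The other Ag+Costim libraries lay below all Naive libraries, whereas Ag+Costim 3 lay above Naive 5. Relb fell by 0.69 ± 0.20 (log2, SE) in Ag+Costim against Naive, from 35.3 ± 5.95 to 21.9 ± 5.86 CPM (mean ± SD, n = 5; edgeR adjusted p = 0.0186). It fell by 0.99 within lane 3 (adjusted p = 0.0266) and by 0.99 with a lane term, where adjusted p = 0.04997 was just under the threshold. Both of these differences set Ag+Costim 4 and 5 against Naive and leave out the high value of Ag+Costim 3. The call was lost without Naive 3 (-0.59, adjusted p = 0.0515), without Ag+Costim 4 (-0.54, 0.0948) or with no filter on low counts (-0.54, 0.207). Ag lay between the other groups, at -0.34 ± 0.20 against Naive (adjusted p = 0.266), and Ag+Costim against Ag gave -0.35 ± 0.20 (adjusted p = 0.282). The Ag values fell into the same split as those of Birc3, with Ag 1 and Ag 4 at the Naive level.

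Rel encodes c-Rel, the subunit made mostly in lymphoid cells. Its CPM was 25.3, 21.4, 22.0, 28.9 and 25.9 in Naive libraries 1 to 5, 43.4, 20.05, 27.4, 36.9 and 9.6 in Ag libraries 1 to 5, and 19.5, 20.2, 16.3, 18.3 and 13.8 in Ag+Costim libraries 1 to 5. All Ag+Costim libraries lay below all Naive libraries, where 45.0% of all genes did not overlap, and the log2 difference of -0.49 ± 0.29 did not pass (edgeR adjusted p = 0.175). With those 2 groups fitted alone it was -0.55 (adjusted p = 0.00483) and within lane 3 -0.62 (adjusted p = 0.0472), in fits that called 64.8% and 34.7% of the genes tested. Within Ag the SD of log2 Rel CPM was 0.82, the widest of the 10 genes. Ag 5 held the lowest value of all libraries. Ag+Costim against Ag gave -0.64 ± 0.29 (adjusted p = 0.181), and -0.86 without Ag 5 (adjusted p = 0.0227). The fit without Ag 5 called 3573 of 18108 genes in that comparison. Ag against Naive gave 0.15 ± 0.29 (adjusted p = 0.742), and -0.083 without Ag 1.

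For Rela and Nfkb2 the largest of the 3 differences was smaller than that of any of the other genes. RELA is the main activating subunit of the classical pathway, and Rela CPM was 136 ± 14.9 in Naive, against 120 ± 20.2 in Ag and 118 ± 8.54 in Ag+Costim (mean ± SD, n = 5). The log2 differences were -0.18 ± 0.12 in Ag against Naive (edgeR adjusted p = 0.324), -0.02 ± 0.12 in Ag+Costim against Ag (0.924) and -0.20 ± 0.12 in Ag+Costim against Naive (0.182). Nfkb2 CPM was 58.2 ± 8.56, 53.1 ± 14.99 and 60.8 ± 11.6 in the same order, and its differences were -0.13 ± 0.19 (adjusted p = 0.653), 0.19 ± 0.19 (0.524) and 0.06 ± 0.19 (0.802). A p that misses the threshold does not show that either gene was unchanged.

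In the Ag group the same libraries held the high values of most of these genes. Ag 1 and Ag 4 were above all 13 other libraries for Traf1 (the lower of the pair at 397 CPM, the next library at 208), for Traf5 (87.3 and 57.1) and for Rel (36.9 and 28.9). They also held the highest 2 Ag values of Birc3, Nfkb1, Nfkb2, Rela and Relb, but not of Traf2 or Traf3. The same libraries had low summed CPM for the 7 cycling and effector genes, 431 and 440, where the other 3 Ag libraries had 2415 to 3216. Their sum for 7 naive-state genes was 4482 and 4772, where the other Ag libraries had 1770 to 1935. Gzmb, which encodes granzyme B, was at 9.73 and 18.5 CPM in Ag 1 and Ag 4 and at 435 to 745 in the other 3. Markers of B cells, which express Traf1, Traf5, Rel and Relb, moved with the pair in part. Ms4a1 was 24.97 and 27.2 CPM in Ag 1 and Ag 4 and 77.1 in Ag 3, but 0.413 in Ag 2 and 0.501 in Ag 5. The summed CPM of 10 B cell markers was 1319, 1588 and 1529 in Ag 1, Ag 4 and Ag 3, and all 10 had a mean of 1 CPM or more in Ag against 5 in Naive and 8 in Ag+Costim, where the sums ran from 597 to 1038 and from 551 to 838. Ag 3, with the most Ms4a1, had the lowest Traf1 of the Ag group and a Traf5 of 48.1 CPM. In the other lists, 11 of 12 myeloid and dendritic markers and 3 of 4 CD4 T cell markers reached a mean of 1 CPM in Ag. So did 3 of 3 NK markers and 4 of 5 erythroid markers. In the same order of lists, 10, 2, 3 and 3 markers did so in Naive and 9, 2, 1 and 3 in Ag+Costim. The highest sums were 264 for the myeloid list (Naive 5), 34.4 for CD4 (Ag 4), 72.1 for NK (Naive 2) and 1051 for the erythroid list (Ag 3). The part of other cells in the values of these genes was not tested.

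**Figure D3:**
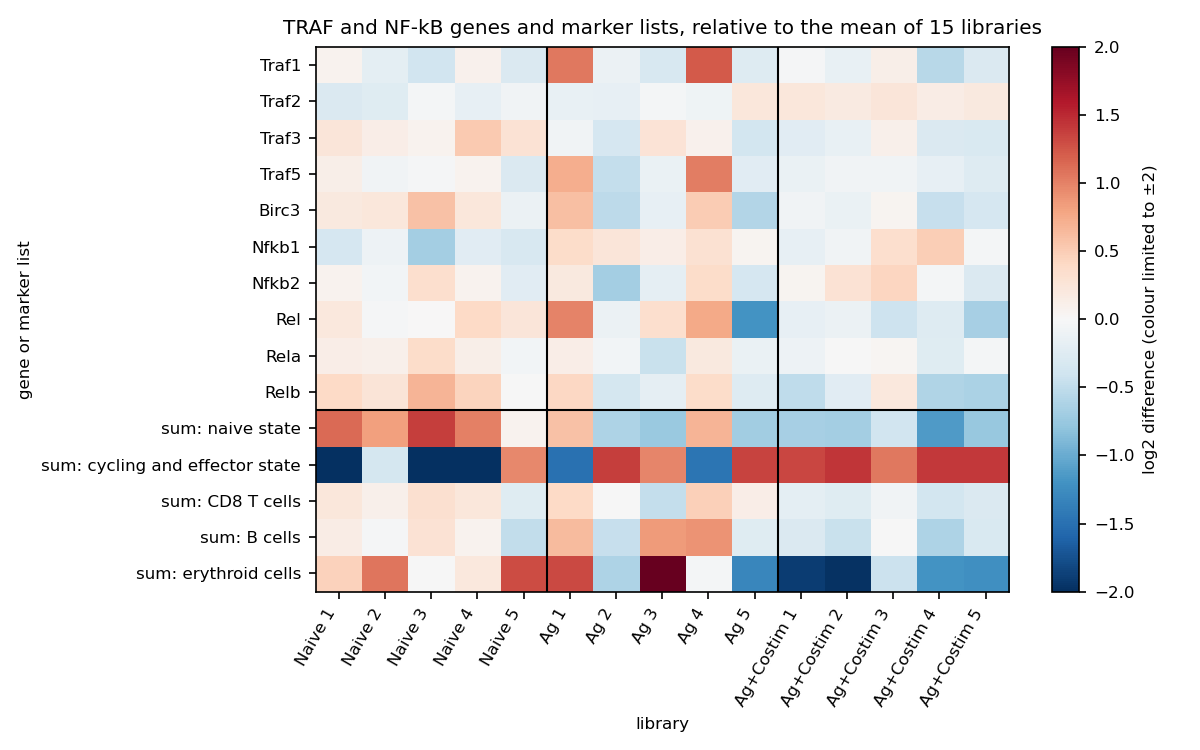
Log2 CPM of the 10 genes and log2 of the summed CPM of the marker lists, each relative to its mean over the 15 libraries (colour scale), with libraries as columns by group and genes and lists as rows. Before the log, 10 CPM were added to each marker sum, and the colour scale was capped at both ends. Ag 1 and Ag 4 stand out in the rows of Traf1, Traf5 and Rel, and in the naive-state and cycling and effector rows they have the sign of most Naive libraries.

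Over the 15 libraries, which share groups and lanes, the log2 CPM of Traf1 and Traf5 had Pearson's r of 0.91, the highest of any pair among the 10 genes. Birc3 and Relb followed with 0.87, then Traf5 and Birc3 with 0.76. The lowest values were -0.67 between Traf2 and Rel, -0.61 between Traf2 and Relb and -0.57 between Traf2 and Traf3. Relb went with the naive-state sum (r = 0.92) and against the cycling and effector sum (r = -0.88), and Birc3 likewise (0.85 and -0.83). Traf2 had the opposite signs, -0.72 and 0.65. Ag+Costim 3 held the highest value of its group for 8 of the 10 genes, all but Nfkb1 and Rel, and Naive 5 the lowest of its group for 5 (Traf5, Birc3, Nfkb2, Rela and Relb).

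Among genes with a mean of 10 CPM or more, those whose log2 CPM followed each gene most closely over the 15 libraries are named here by r alone. For the adaptors these were Rinl (0.93), Samhd1 (0.93) and Tspan32 (0.92) for Traf1, Ints9 (0.98), Anapc7 (0.95) and Asna1 (0.94) for Traf2, Tmem245 (0.91), Ubr3 (0.90) and Pikfyve (0.89) for Traf3, and Itm2c (0.97), Camk2d (0.94) and Ubash3b (0.94) for Traf5. For Birc3 they were Arsa (0.96), Gbp2 (0.95) and Irf2 (0.95). For the subunits they were Milr1 (0.88), Fut7 (0.86) and Xcl1 (0.83) for Nfkb1, Trim21 (0.85), Sh3bp5l (0.83) and Zfp930 (0.83) for Nfkb2, Gm13212 (0.94), Nfat5 (0.93) and Adamts6 (0.91) for Rel, Zfp959 (0.93), Chmp2b (0.92) and Rab2b (0.92) for Rela, and Dusp7 (0.97), Ifit1 (0.96) and Ifi208 (0.96) for Relb. The nearest genes of Nfkb1 and Nfkb2 followed them least closely.

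Levels between genes were compared per length, as TPM, counts divided by transcript length and scaled to the same sum in every library, made from the transcript counts. On that scale Traf1 was the most abundant of the 10 in every group, at 133 ± 21.2 TPM in Naive, against 191 ± 125 in Ag and 114 ± 20.7 in Ag+Costim (mean ± SD, n = 5). Rela came next, at 82.8 ± 12.7, 65.3 ± 18.0 and 65.0 ± 5.07 TPM. Traf5 and Traf2 followed, at 47.6 ± 6.48 and 42.5 ± 5.11 TPM in Naive, where they differed by less than the larger SD. In Ag+Costim their order was the other way, with Traf2 at 51.2 ± 3.48 and Traf5 at 39.9 ± 2.22 TPM. Birc3, Nfkb2, Nfkb1 and Relb stood between 26.5 and 38.9 TPM in Naive, with neighbours in that order closer than the larger of their SDs. The lowest were Traf3, at 11.6 ± 2.97, 6.26 ± 2.36 and 8.50 ± 2.45 TPM, and Rel, at 5.38 ± 0.813, 5.51 ± 3.22 and 3.45 ± 0.502 TPM. Per transcript length, c-Rel RNA was thus the scarcest of the subunits and RelA RNA the most abundant in every group. TPM depends on how reads were assigned to transcripts, so the order of groups by TPM was not always that by CPM. Traf3, for one, had a mean of 24.7 CPM in Ag+Costim and 26.6 in Ag.

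**Figure D4:**
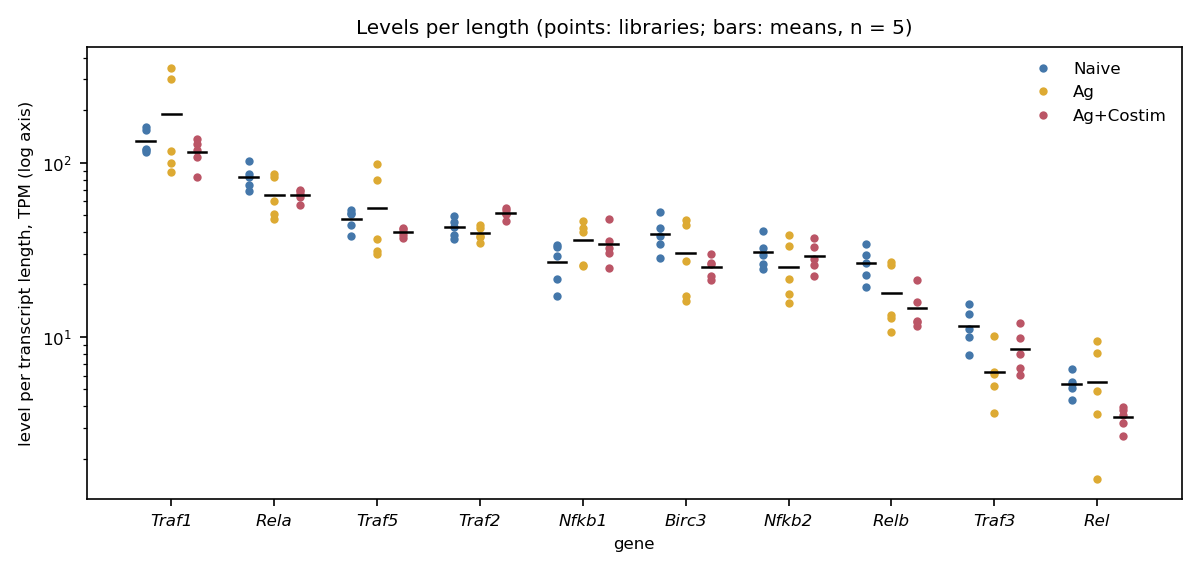
TPM (vertical log axis) of the 10 genes in the 15 libraries, with points for libraries and bars for group means. Traf1 and Rela lead in each group and Traf3 and Rel are lowest.

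The balance between partners, as ratios of TPM within a library, was also computed, and it too depends on how reads were assigned to transcripts. Relb over Rela was 0.317 ± 0.0253 in Naive, against 0.266 ± 0.0473 in Ag and 0.223 ± 0.0492 in Ag+Costim. In Ag+Costim libraries 1 to 5 it was 0.183, 0.232, 0.303, 0.214 and 0.185, and only Ag+Costim 3 reached the Naive range of 0.282 to 0.345. Traf1 over Traf2 was 3.18 ± 0.694 in Naive, against 4.84 ± 3.11 in Ag and 2.25 ± 0.511 in Ag+Costim, and within Ag it ran from 2.09 in Ag 5 to 9.32 in Ag 4. Traf5 over Traf2 was 1.13 ± 0.193, 1.40 ± 0.805 and 0.783 ± 0.0843. Nfkb2 over Nfkb1 was 1.27 ± 0.643, 0.707 ± 0.189 and 0.885 ± 0.196, where Naive 3 alone reached 2.34. Birc3 over Birc2 stayed near 1, at 0.812 ± 0.108, 0.901 ± 0.197 and 0.849 ± 0.144.

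The other genes of the pathway, in 7 lists of 77 genes of which 75 were tested, were tested in the same fit. Between Ag+Costim and Naive 14 were higher and 28 lower (18.7% and 37.3%), and the median log2 difference of the 75 was -0.31. Of all 17366 genes 3648 were higher and 4107 lower, with a median of -0.08. Between Ag and Naive 4 were higher and 7 lower (5.33% and 9.33%), where 529 of all genes were higher and 636 lower. None was called between Ag+Costim and Ag by edgeR, with 22 at an unadjusted p under 0.05. Of 10 TNF receptors tested, 2 rose and 4 fell in Ag+Costim against Naive. Tnfrsf9, the receptor 4-1BB, rose by 1.91 (edgeR adjusted p = 0.0177) and Tnfrsf1b by 1.03, whereas Tnfrsf25 fell by 2.53 and Tnfrsf14, the receptor HVEM, fell by 1.74. Tnfrsf4, the receptor OX40, had a log2 difference of 1.27 with adjusted p = 0.0506. Of 11 other TRAFs, IAPs and adaptors, 4 rose and 2 fell, with Tradd at 0.62, Trafd1 at 0.60, Traf3ip3 at -0.86 and Birc2 at -0.62. In Ag against Naive, Traf6 fell by 0.81 and Tradd rose by 0.50.

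Of 12 IKK and upstream kinases none rose and 6 fell in Ag+Costim against Naive. The counts of each list here stand beside 3648 genes higher and 4107 lower of all 17366 in that comparison, 44.7% in either direction. Map3k14, which encodes NIK, fell by 1.73 (edgeR adjusted p = 0.00815), Ikbke by 1.54, Ikbkb, the catalytic IKKβ, by 1.31, and Map3k3 by 1.26. Malt1, the protease of the receptor-proximal complex, fell by 0.97 and was the 1 call among 4 genes of that list. Of 6 IkB genes 2 fell, Nfkbia by 1.26 (adjusted p = 0.00552) and Nfkbid by 1.19. Nfkbia encodes the inhibitor IkBα, which NF-kB itself induces, and its call held in all 20 alternatives tried. The calls of Map3k14, Tnfrsf9, Tnfaip3 and Birc2 held in 19, 18, 17 and 9 of the 20, and each was lost with a lane term. Of 13 ubiquitin editors and ligase subunits none rose and 7 fell, among them Peli1 by 2.15, Tnfaip3, which encodes the inhibitor A20, by 0.90 (adjusted p = 0.0154), Itch by 0.80 and Rnf31 by 0.65. Of 19 NF-kB target genes 8 rose and 6 fell, with Bcl2a1b at 2.1, Bcl2a1d at 1.93, Il2ra at 1.9 and Cd83 at 1.81. Bcl2a1b and Bcl2a1d are near-identical copies, so how their reads were split is uncertain. In Ag against Naive, Cd83 rose by 2.34, Ccl3 by 2.13 and Bcl2a1b by 2.02, and Malt1, Peli1, Map3k3, Tax1bp1 and Myc fell by 1.04, 1.27, 0.78, 0.44 and 1.04.

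Transcript counts gave each annotated transcript's share of its gene. After the filter 8 of the 10 genes kept more than 1 transcript (all but Rel and Rela). None of the 8 was called for a change in transcript use by edgeR's diffSpliceDGE, where 41, 70 and 76 of 7501 genes were called in Ag against Naive, Ag+Costim against Ag and Ag+Costim against Naive. An unadjusted p under 0.05 was reached by 1, 2 and 0 of the 8, where 448, 652 and 999 of all 7501 genes reached it. Limma's diffSplice called 0, 1 and 1, which was Traf1 in both, where it called 123, 45 and 634 of all 7501 genes. With no filter diffSpliceDGE called Traf3 in Ag against Naive, where it called 236 of 16050 genes. The nearest was Traf3 between Ag and Naive (adjusted p = 0.0836) and between Ag+Costim and Ag (adjusted p = 0.154). Traf3-203 was listed at 0 in all 5 Ag libraries. Its share in Naive libraries 1 to 5 was 0.735, 0.797, 0.00512, 0.904 and 0.0784, and in Ag+Costim libraries 1 to 5 it was 0, 0.782, 0.0284, 0.0573 and 0. The share thus swung from near 0 to near 1 within a group. Traf3-201 took most of the rest, at 0.863 to 1 in Ag. Relb behaved likewise, with Relb-202 between 0.195 and 0.897 in Naive, 0 and 0.990 in Ag, and 0.594 and 0.987 in Ag+Costim, and with Relb-208 at 0.766 in Ag 3 and at most 0.118 elsewhere. For Traf2, Traf2-202 ran from 0.0173 in Ag 4 to 0.842 in Ag+Costim 2, and for Nfkb1 several transcripts swung in the same way. Steady shares were found for Rel, whose 1 transcript took all counts, for Rela-201 (0.976 to 0.996), for Birc3-201 (0.768 to 0.943) and for Traf5-201 (0.765 to 0.870). Traf1 was intermediate. Traf1-207 was at 0.160 to 0.393 in Ag+Costim, 0.0303 to 0.160 in Ag and 0.0561 to 0.155 in Naive. Traf1-206, annotated as a retained intron, was at 0.0618 to 0.101, 0.0504 to 0.176 and 0.114 to 0.258 in the same order. All these shares depend on how reads were assigned to overlapping transcripts.

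**Figure D5:**
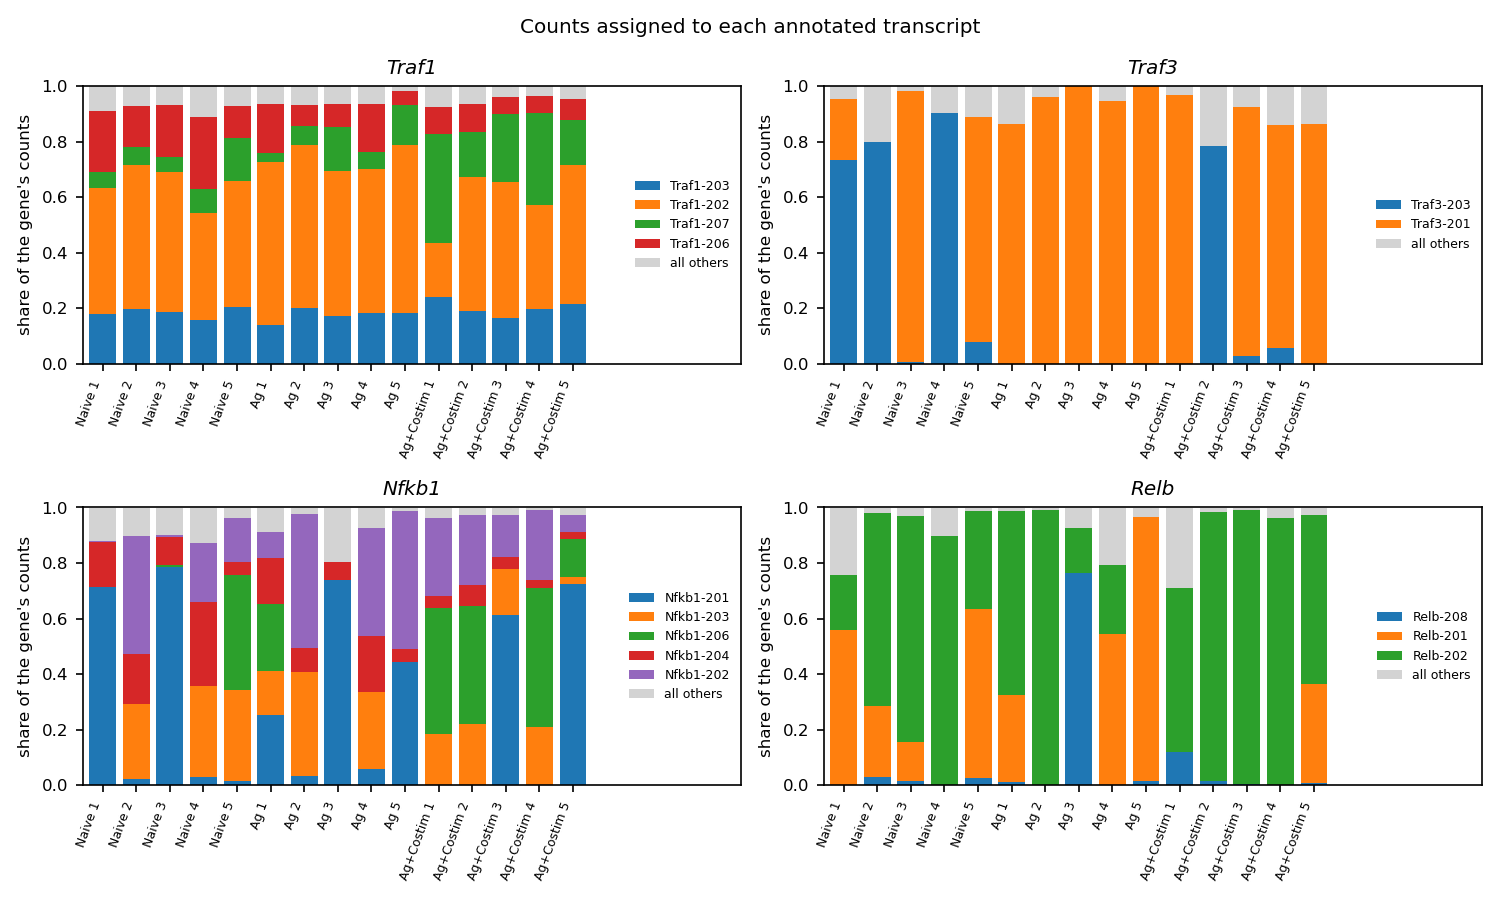
Share of a gene's transcript counts (vertical axis, 0 to 1) taken by each named transcript in the 15 libraries, for Traf1, Traf3, Nfkb1 and Relb, with all other transcripts of the gene in grey. The stacked shares of Traf3 and Relb swing between libraries of 1 group, with Traf3-203 at 0 in all 5 Ag libraries.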

How the data were processed

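The authors aligned the reads to mm10 with HISAT2 2.1.0, sorted them with SAMtools 1.9 and deposited estimated counts per gene and per transcript from StringTie 2.1.0, with a column per library. The libraries were made from sorted cells with a full-length low-input cDNA kit, and per the file headers of the sequencing table, which lists read counts, lanes, input amounts and the percent of reads aligned, reads were 50 bases long. The study's methods used DESeq2 1.30.1 in R 4.0.5 on these counts. A deposited FPKM table and sample sheet were not used. Here gene entries were matched to GENCODE M21: 55536 of 81881 matched, and 26248 entries named by a number alone, with 0.0818% of counts, and 97 others with 0 counts were left out. The 10 genes and all lists were chosen with earlier results of these data known.

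Counts were filtered with filterByExpr, scaled by TMM and tested with robust edgeR quasi-likelihood fits on all 15 libraries (edgeR 4.0.16 in R 4.3.3). The biological coefficient of variation was 0.431. Transcript use was tested with edgeR's diffSpliceDGE, called at a gene and a transcript adjusted p under 0.05 and a change in share of 0.1 or more. Alternatives used DESeq2 1.42.0, limma 3.58.1 (voom with sample quality weights, diffSplice), other scalings, no filter, pairs of groups, a lane term, a replicate block and fewer libraries. On data simulated for Ag+Costim and Naive over 19034 genes, 22% of changes of 2-fold and 94% of changes of 4-fold were recovered. Smaller changes can thus be missed. The simulation gave every gene the same spread, whereas the genes described here differed in spread. These shares therefore do not give the power for each of them. TPM was computed from transcript counts over annotated length. Log2 CPM for correlations between genes and with marker sums was taken after a small constant was added to CPM. A prior count of 2 was used only for the deviations of same-numbered libraries. Likeness was ranked among genes with a mean of 10 CPM or more, and the 3 highest r were named. In each list the genes named were those past the threshold with the largest change, up to 4, and beside them the OX40 and 4-1BB receptors, Birc2, NIK, IkBα and A20.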

Additional observations from a re-analysis of the deposited data

Results flagged for a closer look

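The level of Traf2 in Ag 5 stood apart from its group: 86.8 CPM where the other Ag libraries had 66.7 to 72.3, a gap of 0.722 of the group's range against Dixon's critical value of 0.71 for 5 samples. It was 1 of 48 groups of values examined, where chance alone would flag 2.4. The library input amount was 1.8 in Ag 5 and 1.4 in Ag 2, which had the lowest Traf2 of the group, and its part was not tested.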

How the results depend on the processing

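Most single-gene differences kept their direction and their side of the threshold over the alternatives tried (816 values), 44 lost the threshold, 49 gained it and 35 changed sign. Genes called between Ag and Naive numbered 1165, but 6 with those groups alone, 0 with a lane term, 208 with no filter, 2641 by DESeq2, 4039 by voom, 3945 without Ag 3 and Naive 5, and 255 to 3871 without 1 library. Between Ag+Costim and Ag 6 were called, but 0 with those groups alone, with a lane term or within lane 2, 3 with no filter, 5314 by DESeq2, 11205 by voom, 989 without Ag 3 and Naive 5, and 0 to 3573 without 1 library. Between Ag+Costim and Naive 7755 were called, with 10205 of 15751 in those groups alone, 943 with a lane term, 4158 with no filter, 13527 by voom, and 3892 to 9164 without 1 library. Of the 10 genes, Ag against Naive gave 0 calls with those groups alone, a lane term, library totals or no filter, 3 by voom, and 0 to 1 without 1 library. Ag+Costim against Ag gave 1 by DESeq2, 6 by voom and 0 to 2 without 1 library. Ag+Costim against Naive gave 7 with those groups alone and by voom, 1 (Relb) with a lane term, 2 with library totals, 0 with no filter, and 2 to 4 without 1 library. Transcript use calls, 41, 70 and 76 in that order, were 4, 10 and 71 with 2 groups alone, 123, 45 and 634 by limma, 236, 220 and 284 with no filter, and 46 to 84, 54 to 128 and 76 to 165 without 1 library. The causes were not tested.

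With a replicate block 1660, 0 and 7833 genes were called, 1, 0 and 4 of the 10, and 19, 21 and 67 genes for transcript use. The same-numbered libraries' deviations correlated from -0.32 to 0.47 over the 3 comparisons, so the numbers were not taken to pair libraries. Traf1 in Ag+Costim against Naive was 0.012 with the block.

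Other changes of sign, none past the threshold, were these. In Ag against Naive, voom gave Birc3 0.19 and Nfkb2 0.11, the lane term gave Rel -0.064, and Rel ran from -0.083 to 0.37 without 1 library. In Ag+Costim against Ag, no filter gave Traf3 0.20, Birc3 0.016, Nfkb1 0.17, Rela 0.21, Birc2 0.021 and Tnfaip3 0.090, voom gave Nfkb2 -0.12, Traf3 was 0.011 without Ag 3 and Naive 5, and Rela was 0.023 with a lane term and 0.036 within lane 2. Without 1 library Traf3 ran from -0.16 to 0.033, Nfkb1 from -0.13 to 0.030, Rela from -0.10 to 0.098 and Tnfaip3 from -0.31 to 0.023. In Ag+Costim against Naive, no filter gave Traf1 0.14 and Traf5 0.058, Traf1 was 0.014 without Ag 3 and Naive 5, and Nfkb2 was -0.21 with a lane term, -0.10 with library totals, -0.013 by voom and -0.21 within lane 3. Without 1 library Traf1 ran from -0.093 to 0.15 and Nfkb2 from -0.013 to 0.19.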
